A study of Mus musculus with 11 samples.

Results

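The genes described here are 35 genes of the endoplasmic reticulum (ER) stress response and the integrated stress response, measured by RNA sequencing in gastrocnemius, a mixed-fibre calf muscle, of mice fasted for 36 h. They were found by symbol among the 55385 rows of the deposited gene count table, and 34 of the 35 had enough counts to be tested. They comprise 6 stress sensors and their transcription factors, 8 targets of the transcription factors ATF4 and CHOP, 10 folding enzymes and chaperones, 8 genes of ER-associated degradation, and 3 genes of protein translocation and ribosome binding. The ZEB1 KO group (ZEB1 flx/flx; HSACre, 3 libraries) and the ZEB1 control group (ZEB1 flx/flx, 2 libraries, numbered 2 and 3) formed one line. The ZEB2 KO group (ZEB2 flx/flx; HSACre, 3 libraries) and the ZEB2 control group (ZEB2 flx/flx, 3 libraries) formed the other. In HSACre mice the human skeletal actin promoter drives Cre, which removes floxed DNA in muscle fibres but not in the other cells of a muscle. None of the 4 groups carried Cre without floxed alleles. An effect of Cre itself therefore cannot be told apart from loss of ZEB1 or ZEB2 in either comparison of KO with control. None was fed, so an effect of fasting cannot be told apart from what all 4 groups share. Each library held RNA pooled from 2 mice. The labels give neither strain nor age. All p-values measure the spread between pools.

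In the unfolded protein response, misfolded protein in the ER activates the sensors IRE1 (Ern1), PERK (Eif2ak3) and ATF6 (Atf6). IRE1 splices the Xbp1 mRNA so that it encodes an active transcription factor, ATF6 is released from its membrane by the site proteases, and PERK phosphorylates the translation factor eIF2, which lowers protein synthesis and favours translation of ATF4. Other eIF2 kinases answer amino acid shortage, viral RNA or haem deficiency with the same phosphorylation, and this shared branch is called the integrated stress response. In skeletal muscle, whose specialised ER is the sarcoplasmic reticulum, ATF4 is known as one of the transcription factors that promote fibre wasting during fasting. Levels of Xbp1 mRNA say nothing of its splicing, and ATF4 and PERK are regulated mainly at the protein level, which was not measured.

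Libraries held 27.3 M to 46.3 M counts, and levels are given as CPM, which set a count against its TMM-scaled library size. Myofibre markers summed to between 87219 and 113984 CPM in every library, as the tissue label implies. Zeb1 stood at 28.4, 28.6 and 30.4 CPM in ZEB1 KO pools, against 41.2 and 51.1 CPM in ZEB1 control pools. Zeb2 stood at 18.3, 14.4 and 17.7 CPM in ZEB2 KO pools, against 24.1, 23.1 and 25.8 CPM in ZEB2 control pools. Labels and levels went together in all these pools, although neither gene passed the edgeR test over all genes (adjusted p = 0.800 and 0.0775). Zeb1 also stood higher in ZEB2 KO pools, at 67.2, 60.2 and 76.0 CPM, than in ZEB2 control pools, at 47.7, 52.1 and 43.7 CPM. Its log2 fold change there was 0.50 (SE 0.14, edgeR adjusted p = 0.0787), and that of Zeb2 in the ZEB1 line was 0.07 (SE 0.14). Whole muscle also holds cells without Cre activity, and fewer cells of a type and less RNA per cell cannot be told apart in such samples. Of the 11 libraries, ZEB2 KO pool 3 stood furthest apart: it held the highest or lowest level of 48.2% of the 15416 genes tested, and of 23 of the 34 tested stress genes (67.6%). It was followed by ZEB2 control pool 3, which did so for 26.9% of all genes and for 11 of the 34.

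Promoter sequences are shown first for the genes whose window holds the binding motif of the stress branch they belong to. RefSeq gave a window of 300 bases, from 250 before to 50 after a start site (GRCm38.p6), for 30 of the 35 genes. The ATF4 composite site, searched on both strands as TGATGNAAN, was present in 6 of these 30 genes (Asns, Atf3, Chac1, Herpud1, Nupr1 and Trib3), which is 20%, against 4.50% of all genes with a window. Capitals mark it in the 2 ATF4 target promoters chosen by the smallest p-values.
Chac1, chr2:119350992-119351291, plus strand: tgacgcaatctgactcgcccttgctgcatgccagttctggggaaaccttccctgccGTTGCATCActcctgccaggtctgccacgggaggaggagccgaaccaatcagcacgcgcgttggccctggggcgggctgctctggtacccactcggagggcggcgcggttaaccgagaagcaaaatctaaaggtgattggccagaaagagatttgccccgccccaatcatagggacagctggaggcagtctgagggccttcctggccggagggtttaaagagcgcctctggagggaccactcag
Nupr1, chr7:126625421-126625720, minus strand: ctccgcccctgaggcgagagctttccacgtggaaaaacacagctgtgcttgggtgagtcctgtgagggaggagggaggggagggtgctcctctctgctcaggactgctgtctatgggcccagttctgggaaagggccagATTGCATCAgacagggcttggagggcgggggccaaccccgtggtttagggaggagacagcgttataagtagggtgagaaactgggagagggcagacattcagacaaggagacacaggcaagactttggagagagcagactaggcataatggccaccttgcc
In both, the site lies on the strand opposite to the gene, and its first base falls at position -194 of Chac1 and -111 of Nupr1, counted from the start site. The genes share the motif, and their levels after ZEB2 loss lay on opposite sides of the controls: Chac1 was higher in every ZEB2 KO pool and Nupr1 lower.

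The ER stress element, bound by ATF6 and XBP1 together with NF-Y, was searched on both strands as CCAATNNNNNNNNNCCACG. It was present in 6 of 30 genes (Calr, Canx, Creld2, Derl3, Pdia6 and Syvn1), again 20%, against 0.137% of all genes with a window. Capitals mark it in the 2 folding genes with the smallest p-values among its holders and in Syvn1, the holder among tested degradation genes.
Pdia6, chr12:17266339-17266638, plus strand: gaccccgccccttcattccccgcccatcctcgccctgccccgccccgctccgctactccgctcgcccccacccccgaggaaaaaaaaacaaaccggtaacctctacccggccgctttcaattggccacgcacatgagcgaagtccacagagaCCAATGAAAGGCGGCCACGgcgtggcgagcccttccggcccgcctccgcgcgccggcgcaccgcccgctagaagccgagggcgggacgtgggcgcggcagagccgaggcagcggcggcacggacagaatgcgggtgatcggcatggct
Creld2, chr15:88819396-88819695, plus strand: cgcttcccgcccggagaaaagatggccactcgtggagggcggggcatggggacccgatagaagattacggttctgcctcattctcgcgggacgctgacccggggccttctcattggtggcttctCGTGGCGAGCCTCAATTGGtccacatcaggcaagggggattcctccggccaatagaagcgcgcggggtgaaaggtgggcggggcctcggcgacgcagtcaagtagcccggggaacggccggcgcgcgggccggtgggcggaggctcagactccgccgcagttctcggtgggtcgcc
Syvn1, chr19:6046326-6046625, plus strand: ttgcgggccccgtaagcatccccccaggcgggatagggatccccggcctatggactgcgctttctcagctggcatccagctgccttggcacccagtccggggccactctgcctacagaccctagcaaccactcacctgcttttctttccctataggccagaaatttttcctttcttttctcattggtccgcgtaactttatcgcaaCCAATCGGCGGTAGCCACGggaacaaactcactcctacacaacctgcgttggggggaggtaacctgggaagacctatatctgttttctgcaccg
Herpud1, shown because it holds motifs of both branches and chosen after its values were seen, has the ATF4 composite site at position -113 and the variant ER stress element II (ATTGG, any base, CCACG) at -52, both in capitals.
Herpud1, chr8:94386179-94386478, plus strand: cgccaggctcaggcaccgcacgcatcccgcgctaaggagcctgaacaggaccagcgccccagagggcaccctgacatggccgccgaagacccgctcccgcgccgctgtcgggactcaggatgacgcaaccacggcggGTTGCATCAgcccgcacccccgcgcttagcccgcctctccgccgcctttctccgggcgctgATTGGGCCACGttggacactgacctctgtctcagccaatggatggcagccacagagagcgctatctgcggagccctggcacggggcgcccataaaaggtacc
The variant was found in 0.0444% of genes with a window. The E-box CACCTG, the core of the sites that ZEB proteins bind, was found in 6 of 30 genes (Atf4, Atf5, Derl3, Eif2ak3, Syvn1 and Xbp1), 20%, against 22.6% of all genes, so its share was near that of promoters in general. The cyclic AMP response element TGACGTCA was found in Ppp1r15a alone of the 30 genes, against 2.03% of all genes, and the UPR element core TGACGTGG in 0 of 30, against 0.714%. A match is a run of letters in this window and was not measured as a bound site.

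The set spanned a wide range of abundance. Per kilobase of exon and averaged over the 11 libraries, Atf4 was the most abundant at 150 CPM per kb, ahead of Herpud1 at 80.9, Ppp1r15a at 73.3, P4hb at 58.5 and Chac1 at 52.7 CPM per kb. Asns, the ATF4 target that makes asparagine, was lowest of the tested genes at 0.554 CPM per kb. Derl3, a degradation gene typical of secretory cells, had 30 counts in all 11 libraries, with at most 0.269 CPM in any, and was not tested. The fasted muscles also differed widely within groups. The highest of the 11 libraries exceeded the lowest by more than 2-fold for 18 of the 34 genes, where 56.6% of all tested genes did so. This held for 7 of 8 ATF4 and CHOP targets but for 2 of 10 folding genes, and the ratio ran from 1.23 for Calr to 12.5 for Edem1.

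**Figure D1:**
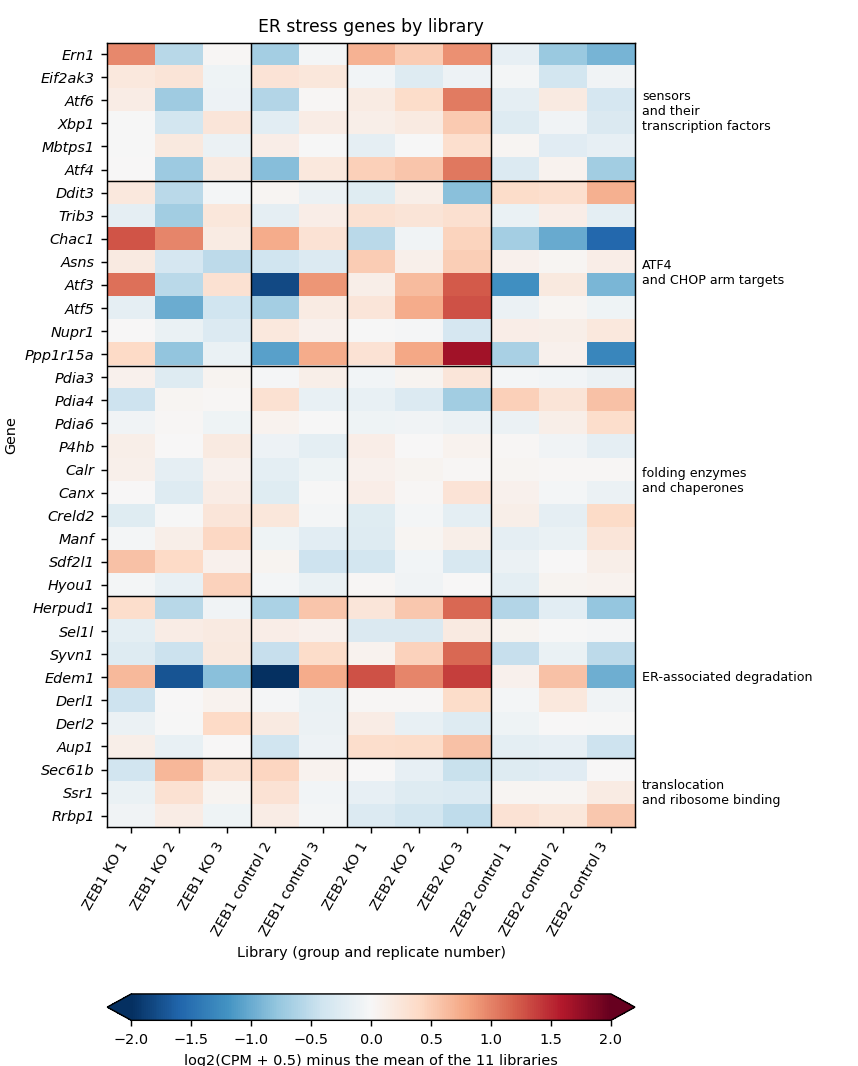
Each row is 1 of the 34 tested stress genes and each column 1 library; colour gives log2(CPM + 0.5) minus that gene's mean over the 11 libraries, with red above and blue below. ZEB2 KO pools are mostly red for Ern1, Atf4, Atf5, Ppp1r15a, Herpud1, Edem1 and Aup1, most folding genes are pale, with Pdia4 and Sdf2l1 varying more, and ZEB2 KO pool 3 is the highest or lowest library for 23 of the 34 genes.

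In ZEB2 KO muscle the counts of higher and lower members ran as follows by role, a description with no test between roles. All 6 sensors and their transcription factors were higher in value than in ZEB2 control muscle (median log2 fold change 0.58), as were 6 of 8 ATF4 and CHOP targets (median 0.65) and 5 of 7 tested degradation genes (median 0.70). The 10 folding genes were evenly divided, 5 higher and 5 lower, with a median of -0.0062, and all 3 translocation genes were lower (median -0.32). Over the 34 genes, 22 were higher and 12 lower, where 46.6% of all genes were higher, and the median was 0.15, against -0.047 over all genes tested. Upper-quartile scaling moved the median over all genes by -0.13. Under it, Eif2ak3, Calr, Hyou1 and Derl1 changed sign and 18 of the 34 were higher. No direction is therefore given for these 4 genes, although the counts above include them as higher, at their sign under TMM scaling. Manf, counted as lower at -0.013, was at 0.020 in DESeq2, so no direction is given for it either. Under RLE scaling 23 of the 34 were higher. No gene passed the main test: edgeR's quasi-likelihood fit called 0 of 34, where it also called 0 of all 15416 genes (smallest adjusted p = 0.0775), and limma-voom called 0. At an unadjusted p under 0.05 in edgeR, 10 of the 34 were higher and 4 lower, 41.2% of the set, where 33.2% of all genes reached that level (15.9% higher and 17.3% lower). DESeq2 called 11 of the 34, 8 higher and 3 lower, which is 32.4%, where it called 16.8% of all genes (9.08% higher and 7.70% lower). The ZEB2 KO and ZEB2 control pools did not overlap for 16 of the 34, with 11 above and 5 below, 47.1% against 43.4% of all genes (21.3% above and 22.1% below).

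Most of these calls were lost when either of 2 libraries was left out. Without ZEB2 control pool 3, DESeq2 called 1 of the 34 genes, Aup1, where it called 0.385% of all genes. Without ZEB2 KO pool 3 it called 2, Aup1 and Rrbp1, where it called 1.63% of all genes. The loss of calls was thus seen over all genes, not in the stress genes alone. Leaving out ZEB2 control pool 1 left 6 calls, without Atf4, Atf5, Ddit3, Ppp1r15a and Syvn1 (9.18% of all genes). Leaving out ZEB2 control pool 2 left 9 (13.5% of all genes), ZEB2 KO pool 1 left 10 (13.0%) and ZEB2 KO pool 2 left 10 (10.8%). The edgeR fold changes of the 11 genes kept their sign when any 1 of the 11 libraries was left out. An edgeR fit on the 6 ZEB2 libraries alone, which takes the spread from those 2 groups only, called 9 of the 34, where it called 14.2% of all genes: Ern1, Atf4, Atf5, Chac1, Herpud1, Syvn1 and Aup1 as higher, and Pdia4 and Rrbp1 as lower.

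**Figure D2:**
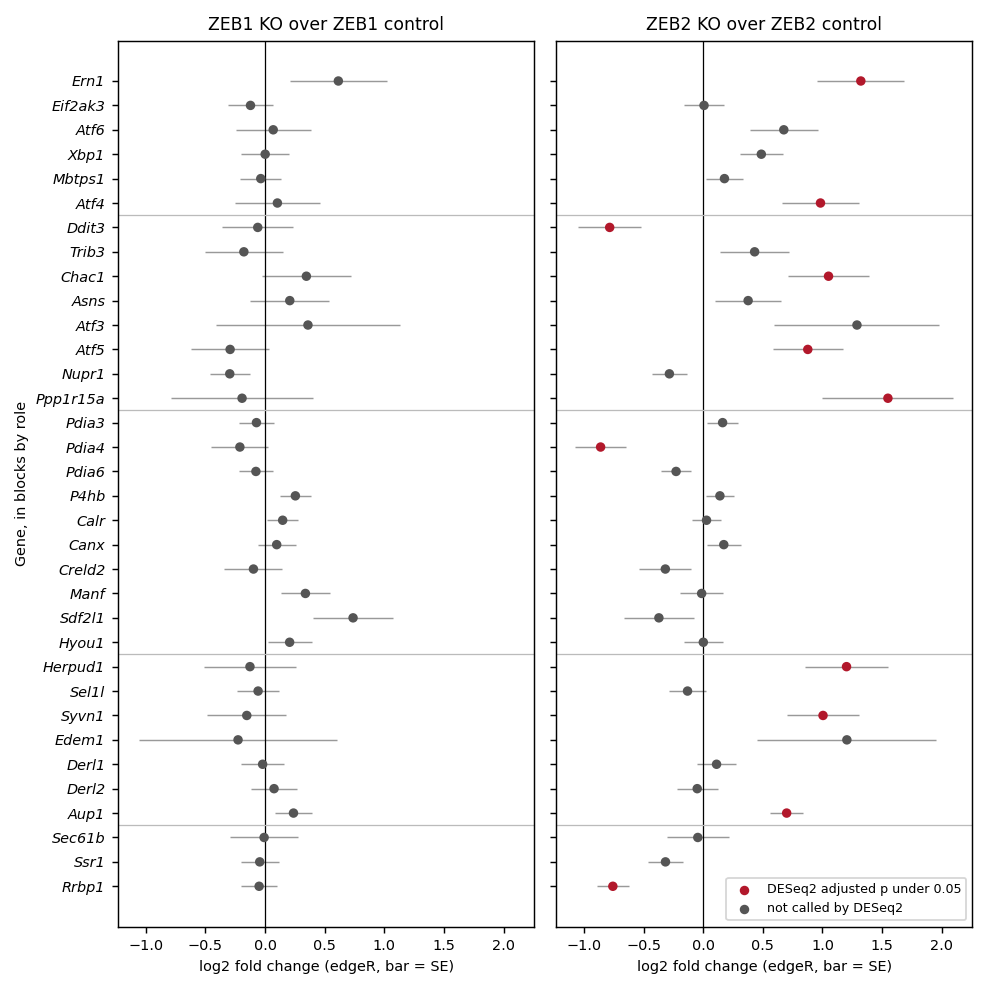
Points give edgeR log2 fold changes of the 34 tested genes, in blocks by role, for ZEB1 KO over ZEB1 control (left) and ZEB2 KO over ZEB2 control (right); bars are 1 standard error and red marks a DESeq2 adjusted p under 0.05. The right panel holds 11 red points, 8 of them right of 0, and the left panel holds 0.

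Among the sensors, Ern1 (ENSMUSG00000020715.9, GRCm38 chromosome 11, 106394650 to 106487852, minus strand) showed the largest difference. Its level was 40.1, 35.4 and 47.1 CPM in ZEB2 KO pools, against 21.9, 14.5 and 12.7 CPM in ZEB2 control pools. All ZEB2 KO pools lay above all ZEB2 control pools, with a log2 fold change of 1.32 (SE 0.36, edgeR adjusted p = 0.0793, DESeq2 adjusted p = 0.00778). Atf4 (ENSMUSG00000042406.8, chromosome 15, 80255184 to 80257541, plus strand) was at 455, 480 and 678 CPM in ZEB2 KO pools, against 269, 345 and 202 CPM in ZEB2 control pools. The groups again did not overlap, and the log2 fold change was 0.98 (SE 0.32, edgeR adjusted p = 0.0909, DESeq2 adjusted p = 0.0247). Xbp1, the mRNA that IRE1 splices, stood at 108, 112 and 142 CPM in ZEB2 KO pools and at 82.5, 94.5 and 81.0 CPM in ZEB2 control pools. It did not pass in DESeq2 (adjusted p = 0.0537), and its log2 fold change was 0.49 (SE 0.18, edgeR adjusted p = 0.106). Atf6 stood at 59.0, 67.7 and 108 CPM in ZEB2 KO pools, against 46.1, 59.6 and 41.4 CPM in ZEB2 control pools. These groups overlapped, since ZEB2 KO pool 1 lay below ZEB2 control pool 2. Eif2ak3, the PERK gene, differed little, at 5.34, 4.56 and 5.15 CPM in ZEB2 KO pools and 5.44, 4.22 and 5.30 CPM in ZEB2 control pools. Mbtps1, a site protease that cleaves ATF6, also overlapped, at 38.5, 43.4 and 54.8 CPM in ZEB2 KO pools and 45.0, 37.0 and 38.9 CPM in ZEB2 control pools. Among the 3 sensor genes, then, DESeq2 called Ern1 alone, and Atf6 and Eif2ak3 did not pass.

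The ATF4 and CHOP targets held the largest and the most opposed differences. Ppp1r15a (ENSMUSG00000040435.12, chromosome 7, 45522916 to 45526268, minus strand) encodes GADD34, the phosphatase subunit that reverses eIF2 phosphorylation. It stood at 219, 308 and 575 CPM in ZEB2 KO pools, against 114, 190 and 72.8 CPM in ZEB2 control pools. Its log2 fold change of 1.55 was the largest of the 34 (SE 0.55, edgeR adjusted p = 0.102, DESeq2 adjusted p = 0.0196). Without ZEB2 KO pool 3 it was 1.09, and without ZEB2 control pool 2 it was 1.97. Chac1 (ENSMUSG00000027313.3, chromosome 2, 119351229 to 119354381, plus strand), which degrades glutathione, was at 50.5, 70.0 and 101 CPM in ZEB2 KO pools and at 45.8, 36.5 and 24.6 CPM in ZEB2 control pools (log2 fold change 1.05, SE 0.34, DESeq2 adjusted p = 0.0196). The lowest ZEB2 KO pool and the highest ZEB2 control pool lay close together. Atf5, a transcription factor of the mitochondrial stress response, was at 72.1, 102 and 148 CPM in ZEB2 KO pools, against 56.3, 62.2 and 57.3 CPM in ZEB2 control pools (log2 fold change 0.88, SE 0.30, DESeq2 adjusted p = 0.0308). Here the ZEB2 control pools were tightly grouped and the ZEB2 KO pools spread out, and the DESeq2 call remained only when ZEB2 KO pool 1 was the library left out.

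Ddit3 (ENSMUSG00000025408.15, chromosome 10, 127290774 to 127296288, plus strand) went the other way. It encodes CHOP, the transcription factor downstream of ATF4 that is linked to cell death. Its level was 6.75, 8.84 and 4.31 CPM in ZEB2 KO pools, against 10.5, 10.3 and 13.5 CPM in ZEB2 control pools. Every ZEB2 KO pool lay below every ZEB2 control pool, with a log2 fold change of -0.78 (SE 0.27, edgeR adjusted p = 0.0940, DESeq2 adjusted p = 0.0465). Of the 6 omissions of 1 ZEB2 library, the DESeq2 call remained only in that of ZEB2 KO pool 2. Nupr1, a small chromatin protein induced by stress, also did not overlap, at 7.94, 7.87 and 6.22 CPM in ZEB2 KO pools and 8.84, 8.67 and 9.31 CPM in ZEB2 control pools, and did not pass in DESeq2 (adjusted p = 0.251). Trib3, a pseudokinase that restrains ATF4, lay at 2.46 to 2.59 CPM in ZEB2 KO pools and 1.67 to 2.22 CPM in ZEB2 control pools, without overlap and without passing either test. Atf3, a repressor induced early in stress, had overlapping groups, at 13.3, 19.3 and 29.3 CPM in ZEB2 KO pools and 4.98, 14.1 and 6.27 CPM in ZEB2 control pools. Asns overlapped too. Atf4 was thus higher in all ZEB2 KO pools while CHOP mRNA was lower in all of them. Ddit3, Atf5 and Ppp1r15a overlap genes on the other strand (Mars and Gm4189, Il4i1 and Nup62, and Tulp2), and nothing used here states whether the counting used strand, so their counts may include reads of those genes. A second Ddit3 row held 3 counts in all and was not tested.

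**Figure D3:**
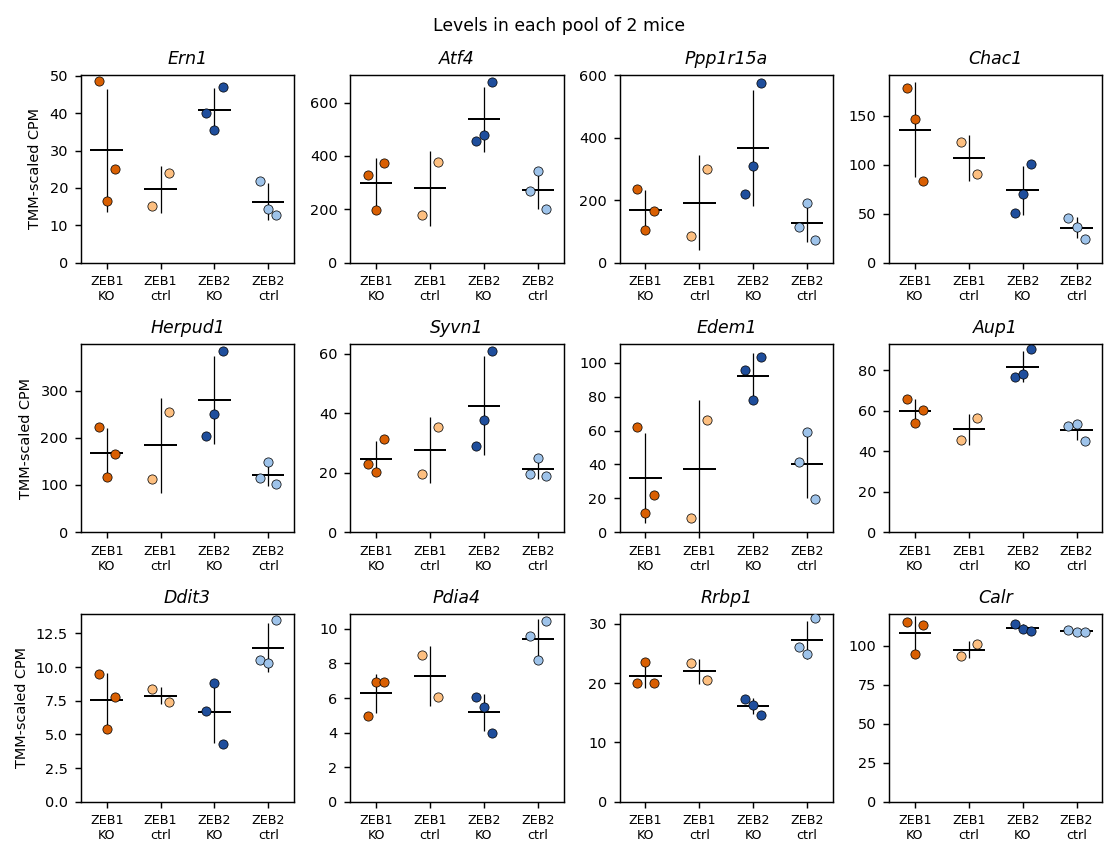
TMM-scaled CPM of 12 genes in each library of the 4 groups, with each KO group left of its control; points are pools of 2 mice, horizontal bars group means and vertical bars 1 SD. ZEB2 KO pools lie above ZEB2 control pools for Ern1, Atf4, Ppp1r15a, Chac1, Herpud1, Syvn1, Edem1 and Aup1, below them for Ddit3, Pdia4 and Rrbp1, and beside them for Calr.

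The folding enzymes and chaperones differed least. In ZEB2 KO muscle, log2 fold changes of 9 of the 10 lay between -0.37 (Sdf2l1) and 0.17 (Canx), and none of these 9 passed in DESeq2. The exception was Pdia4 (ENSMUSG00000025823.9, chromosome 6, 47796141 to 47813430, minus strand), a disulfide isomerase, at 6.06, 5.50 and 3.998 CPM in ZEB2 KO pools against 9.62, 8.18 and 10.4 CPM in ZEB2 control pools. Its groups did not overlap, and it was lower by DESeq2 (log2 fold change -0.86, SE 0.21, edgeR adjusted p = 0.0775, DESeq2 adjusted p = 0.00937). Calr, encoding the calcium-binding chaperone calreticulin, varied least of the set, at 114, 111 and 110 CPM in ZEB2 KO pools and 110, 109 and 109 CPM in ZEB2 control pools. P4hb, encoding protein disulfide isomerase itself, was at 183, 168 and 174 CPM in ZEB2 KO pools and 170, 159 and 147 CPM in ZEB2 control pools, with overlapping groups. Pdia6, another isomerase, was at 25.2, 25.4 and 24.7 CPM in ZEB2 KO pools and 24.7, 29.2 and 34.2 CPM in ZEB2 control pools. Most of its spread came from the ZEB2 control pools. Creld2, which like Pdia6 holds an ER stress element in the window shown above, also overlapped, at 2.90 to 3.41 CPM in ZEB2 KO pools and 3.06 to 4.71 CPM in ZEB2 control pools. Pdia3, Canx (calnexin), Manf (a secreted ER stress protein), Sdf2l1 (a cofactor of the chaperone BiP) and Hyou1 (an Hsp70-related chaperone) overlapped as well. Pdia3, Pdia6 and Manf overlap genes on the opposite strand (Catsper2, Atp6v1c2 and Dcaf1), with the same uncertainty as for Ddit3.

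ER-associated degradation carries misfolded proteins out of the ER to the proteasome, and 3 of its 7 tested genes were higher by DESeq2, where 9.08% of all genes were. Herpud1 (ENSMUSG00000031770.16, chromosome 8, 94386438 to 94395377, plus strand), a membrane scaffold of the degradation complex, was at 204, 251 and 384 CPM in ZEB2 KO pools, against 115, 149 and 101 CPM in ZEB2 control pools. The groups did not overlap, and the log2 fold change was 1.20 (SE 0.35, edgeR adjusted p = 0.0824, DESeq2 adjusted p = 0.0112). Syvn1, the ubiquitin ligase HRD1, was at 28.8, 37.6 and 61.0 CPM in ZEB2 KO pools, against 19.7, 24.9 and 18.9 CPM in ZEB2 control pools (log2 fold change 1.00, SE 0.30, DESeq2 adjusted p = 0.0172). Its partner Sel1l, the HRD1 adaptor, showed no such separation, at 40.0, 39.9 and 55.2 CPM in ZEB2 KO pools and 50.9, 48.9 and 48.2 CPM in ZEB2 control pools. Aup1 (ENSMUSG00000068328.9, chromosome 6, 83054521 to 83057808, plus strand), a lipid droplet and degradation protein that recruits a ubiquitin-conjugating enzyme, was at 76.8, 78.0 and 90.7 CPM in ZEB2 KO pools, against 52.5, 53.6 and 45.1 CPM in ZEB2 control pools. It had the smallest SE of the stress genes that DESeq2 called higher (log2 fold change 0.70, SE 0.14, edgeR adjusted p = 0.0775, DESeq2 adjusted p = 0.00110). DESeq2 called it without any 1 of the 6 ZEB2 libraries. Edem1, a lectin that hands over misfolded glycoproteins, was at 95.8, 78.0 and 104 CPM in ZEB2 KO pools, against 41.7, 59.2 and 19.6 CPM in ZEB2 control pools. These groups did not overlap either, but its spread over the series was the widest of the set, and the log2 fold change of 1.20 had an SE of 0.75 (edgeR adjusted p = 0.274, DESeq2 adjusted p = 0.268). Derl1 and Derl2, derlin channel components, overlapped between groups. Aup1 overlaps Htra2, Syvn1 overlaps Mrpl49 and Derl2 overlaps Mis12 on the opposite strand, with the same uncertainty as above.

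The 3 translocation and ribosome binding genes were lower in value. Rrbp1 (ENSMUSG00000027422.15, chromosome 2, 143947395 to 144011263, minus strand), which anchors ribosomes to the rough ER, was at 17.4, 16.4 and 14.7 CPM in ZEB2 KO pools, against 26.1, 24.8 and 30.9 CPM in ZEB2 control pools. Its groups lay well apart and it ranked first of the 34 in both tests (log2 fold change -0.76, SE 0.13, edgeR adjusted p = 0.0775, DESeq2 adjusted p = 0.000459). Ssr1, a subunit of the translocon-associated complex, was at 43.9, 40.9 and 40.5 CPM in ZEB2 KO pools and 50.4, 50.4 and 55.2 CPM in ZEB2 control pools, and did not pass (DESeq2 adjusted p = 0.159). Sec61b, a subunit of the translocation channel, was at 7.17, 6.30 and 5.10 CPM in ZEB2 KO pools and 5.88, 6.06 and 7.21 CPM in ZEB2 control pools, with overlapping groups.

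Other readouts moved in the same ZEB2 pools, and their part in these results was not tested. Fibroblast markers, whose cells are rich in rough ER, were lower in value in ZEB2 KO pools for 10 of 10 genes (median log2 fold change -1.14), with a summed level of 633 to 866 CPM in ZEB2 KO pools and 1062 to 1457 CPM in ZEB2 control pools. Macrophage markers were lower for 9 of 10 (107 to 118 CPM in ZEB2 KO pools, 130 to 172 CPM in ZEB2 control pools), adipocyte and Schwann cell markers for 8 of 8 each, and endothelial markers for 8 of 8 with a median of -0.24. Plasma cells, another type with much ER, left little signal, with summed markers of 8.78 to 20.6 CPM in ZEB2 KO pools and 11.9 to 19.98 CPM in ZEB2 control pools, and 5 of 9 markers tested. Mitochondrial transcripts took 14.9, 14.7 and 12.1% of counts in ZEB2 KO pools, against 16.0, 16.95 and 18.01% in ZEB2 control pools, without overlap. The pools also differed in sex. The summed level of 4 Y-linked genes was 216, 256 and 378 CPM in ZEB2 KO pools, against 118, 250 and 0 CPM in ZEB2 control pools. The pool at 0, ZEB2 control pool 3, is the one without which DESeq2 called 1 of the 34 genes. Xist, a transcript of female cells, was at 73.1, 2.09 and 3.29 CPM in ZEB2 KO pools and at 185, 0.419 and 128 CPM in ZEB2 control pools. ZEB2 KO pool 1 and ZEB2 control pool 1 thus showed clear signal of both. In ZEB1 KO pools the Y-linked sum was 0, 0 and 210 CPM and Xist was at 468, 390 and 0.290 CPM. In ZEB1 control pools Xist was at 371 and 154 CPM.

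Levels of the muscle atrophy programme also differed between pools. Trim63 encodes MuRF1, a ubiquitin ligase that fasting induces in muscle. It stood at 5157, 4973 and 7378 CPM in ZEB2 KO pools, against 2139, 3197 and 956 CPM in ZEB2 control pools. In the ZEB1 line it was at 4710, 925 and 2854 CPM in ZEB1 KO pools, against 770 and 4750 CPM in ZEB1 control pools. The 3 libraries lowest in Trim63, namely ZEB1 control pool 2, ZEB1 KO pool 2 and ZEB2 control pool 3, were also the 3 lowest in Edem1, at 8.32, 11.5 and 19.6 CPM. Chac1, also among the widest-ranging members (7.25-fold from lowest to highest library), did not follow Trim63 across the lines: it was at 124 CPM in ZEB1 control pool 2 and 50.5 CPM in ZEB2 KO pool 1. Within the ZEB1 line it was at 178 CPM in ZEB1 KO pool 1 and 90.2 CPM in ZEB1 control pool 3, both high in Trim63. Within the ZEB2 line, the pools lowest and highest in Trim63 were also lowest and highest in Chac1. These were ZEB2 control pool 3 at 24.6 CPM and ZEB2 KO pool 3 at 101 CPM. The 14 genes of a fasting atrophy list were all higher in value in ZEB2 KO than in ZEB2 control pools, against 46.6% of all genes. Their median was 1.24 on the log2 scale. DESeq2 called 6 of the 14 as higher (42.9%), where it called 9.08% of all genes as higher. Between the 2 ZEB1 control pools, which share a genotype, Trim63 differed 6.17-fold and Fbxo32, encoding the ligase atrogin-1, 3.36-fold. These pools also differed in the summed level of Y-linked genes, at 0 CPM in pool 2 and 163 CPM in pool 3, and its part was not tested. The same pair differed more than 2-fold for 5 of the 34 stress genes, all higher in pool 3, where 13.8% of all genes differed that much in either direction and 6.44% were that much higher in pool 3. These were Edem1 (7.96-fold), Atf3 (7.34-fold), Ppp1r15a (3.55-fold), Herpud1 (2.28-fold) and Atf4 (2.10-fold). For Edem1, Atf3, Ppp1r15a and Atf4 this ratio between pools of 1 genotype exceeded the fitted ratio of ZEB2 KO over ZEB2 control, and for Herpud1 it was close to it.

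**Figure D4:**
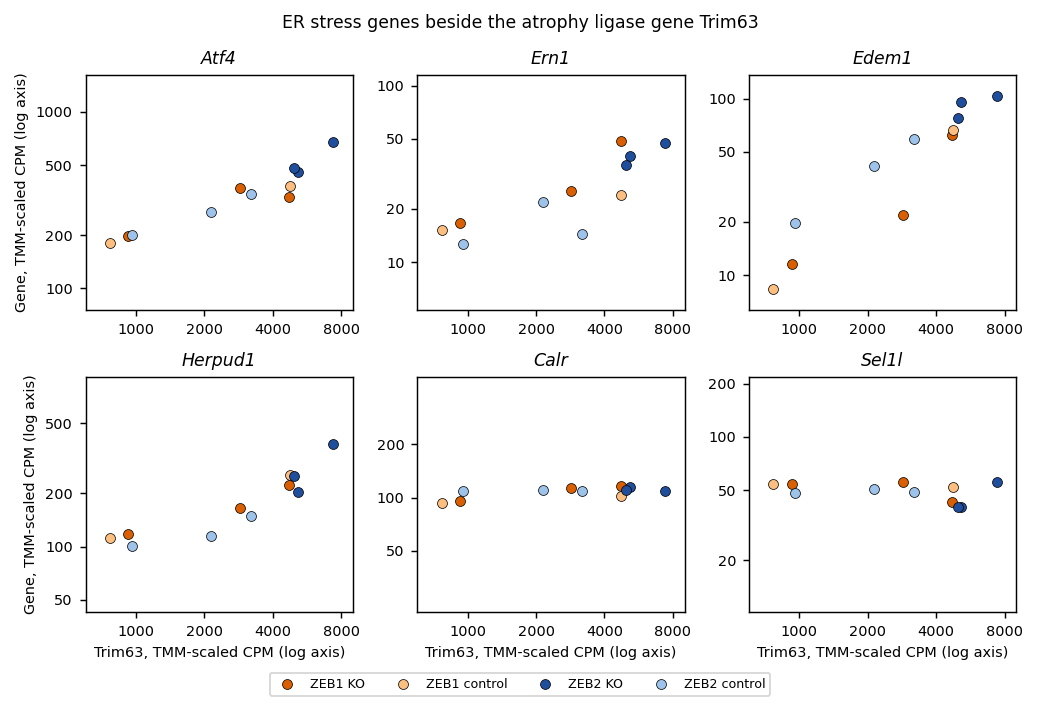
Each point is 1 library, with Trim63 on the horizontal and the named gene on the vertical axis, both in TMM-scaled CPM on log axes. Atf4, Edem1 and Herpud1 are higher in the libraries with more Trim63 in both lines, Ern1 less regularly so, and Calr and Sel1l stay nearly level.

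In ZEB1 KO muscle the stress genes lay on both sides of their controls. Of the 34 genes, 15 were higher and 19 lower in value than in ZEB1 control muscle, where 51.2% of all genes were higher. The median log2 fold change was -0.028, against 0.0069 over all genes. edgeR and DESeq2 each called 0 of the 34, where DESeq2 called 0.136% of all genes, and 1 gene had an unadjusted p under 0.05 in edgeR (2.94% of the set, against 3.24% of all genes). This was Sdf2l1, at 1.98, 1.67 and 1.25 CPM in ZEB1 KO pools against 1.22 and 0.73 CPM in ZEB1 control pools (log2 fold change 0.74, SE 0.33, edgeR adjusted p = 1.00). The groups did not overlap for 4 of the 34, 11.8% against 13.9% of all genes (7.19% above and 6.69% below). Sdf2l1, P4hb (181, 168 and 189 CPM in ZEB1 KO pools, 155 and 145 CPM in ZEB1 control pools) and Manf (9.38, 10.5 and 13.003 CPM in ZEB1 KO pools, 9.07 and 8.25 CPM in ZEB1 control pools) lay above. All 3 are folding genes, but the share of the set above, 8.82%, was near the 7.19% of all genes. The margins of Sdf2l1 and Manf were narrow. Manf overlaps Rbm15b on the same strand and Dcaf1 on the opposite strand, so its counts are uncertain. Nupr1 lay below, at 8.05, 7.21 and 6.53 CPM in ZEB1 KO pools and 9.37 and 8.46 CPM in ZEB1 control pools.

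Several sensors and ATF4 targets spread widely within the ZEB1 line, and others did not. Atf4 was at 330, 198 and 373 CPM in ZEB1 KO pools and at 180 and 379 CPM in ZEB1 control pools. Ern1 was at 48.5, 16.6 and 25.2 CPM in ZEB1 KO pools and at 15.2 and 24.1 CPM in ZEB1 control pools, and pool 1 was the highest of the 11 libraries. Ppp1r15a was at 236, 104 and 164 CPM in ZEB1 KO pools and at 84.5 and 300 CPM in ZEB1 control pools. The ZEB1 control pools thus enclosed most of the ZEB1 KO values. For Herpud1 the levels were 222, 117 and 165 CPM in ZEB1 KO pools and 112 and 255 CPM in ZEB1 control pools. Eif2ak3, Mbtps1, Nupr1 and Xbp1 each varied less than 2-fold over all 11 libraries. With 2 control pools, the median over the 34 genes became 0.16 without ZEB1 control pool 3 and 0.10 without ZEB1 KO pool 2.

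The difference between both knockout effects was tested directly, as the ZEB1 effect minus the ZEB2 effect. edgeR and DESeq2 each called 0 of the 34 genes (smallest edgeR adjusted p = 0.516), where DESeq2 called 0.110% of all genes. At an unadjusted p under 0.05 in edgeR, 6 of the 34 differed (17.6%, against 9.26% of all genes, 5.09% positive and 4.17% negative). The difference was negative for Herpud1 (-1.33, SE 0.51), Atf5 (-1.17, SE 0.44), Syvn1 (-1.16, SE 0.44) and Aup1 (-0.46, SE 0.21), so the ZEB2 effect was the higher in value. It was positive for Sdf2l1 (1.11, SE 0.44) and Rrbp1 (0.71, SE 0.20). An effect particular to either knockout was therefore not shown for any of the 34 genes.

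Between the ZEB2 control and ZEB1 control groups, both without Cre, edgeR called 0 of the 34 genes and DESeq2 called 1. This was Chac1, at 45.8, 36.5 and 24.6 CPM in ZEB2 control pools, against 124 and 90.2 CPM in ZEB1 control pools. All ZEB2 control pools lay below both ZEB1 control pools, with a log2 fold change of -1.58 (SE 0.37, edgeR adjusted p = 1.00, DESeq2 adjusted p = 0.0322). DESeq2 called 0.104% of all genes in this comparison and edgeR 0.0195% (3 genes). The groups did not overlap for 9 of the 34, 26.5% against 16.6% of all genes (8.96% above and 7.66% below). Ddit3, Asns, Calr and Rrbp1 lay above, and Eif2ak3, Chac1, Pdia3, Sel1l and Sec61b below. The ZEB1 KO pools, at 178, 146 and 83.0 CPM, were also high in Chac1, and the ZEB2 KO pools, at 50.5, 70.0 and 101 CPM, lay above their own controls. Of these 3 ZEB2 KO pools, 2 lay below every library of the ZEB1 line. Eif2ak3 was the only other of the 34 genes with an unadjusted p under 0.05 (5.88% of the set, against 3.32% of all genes), at 5.44, 4.22 and 5.30 CPM in ZEB2 control pools and 6.87 and 6.58 CPM in ZEB1 control pools (log2 fold change -0.43, SE 0.19).

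Other genes of the pathway were taken from lists of 129 genes that exclude the 35, of which 124 were tested. In ZEB2 KO muscle 89 were higher (71.8%, against 46.6% of all genes) and 35 lower in value than in ZEB2 control muscle, and the median was 0.21 on the log2 scale. DESeq2 called 25 as higher and 4 as lower (23.4%, against 16.8% of all genes). edgeR called 0, with 50 at an unadjusted p under 0.05 (40.3%, against 33.2% of all genes). By list, 11 of 19 other sensors and regulators were higher in value, 22 of 29 other ATF4 targets, 14 of 25 other folding genes, 17 of 23 other degradation genes and 25 of 28 other translocation genes. The other translocation genes (median 0.22) thus lay on the opposite side of 0 from the 3 translocation members. Among other ATF4 targets, DESeq2 called 8 of 29, all higher: the growth brake Sesn2, the translation repressor Eif4ebp1, the transcription factor Cebpb, the amino acid transporter subunit Slc3a2 and the tRNA synthetases Nars, Sars, Gars and Cars. Cebpb had the largest of these differences after Eif4ebp1, at 26.7, 30.4 and 47.3 CPM in ZEB2 KO pools against 11.5, 19.98 and 12.7 CPM in ZEB2 control pools. Among other sensors and regulators it called Tmbim6 (an inhibitor of IRE1 signalling) and Bax as higher, and Eif2ak2 and Creb3l2 as lower. Eif2ak2 encodes PKR, the eIF2 kinase that answers viral RNA, and was at 1.85, 2.44 and 1.83 CPM in ZEB2 KO pools against 4.45, 4.67 and 5.54 CPM in ZEB2 control pools (log2 fold change -1.26, SE 0.29, DESeq2 adjusted p = 0.00426).

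Among other folding genes, DESeq2 called Dnajb9, Sdf2 and Selenok as higher and Ero1l and Lman1 as lower. These were 20% of the 25 tested, near the 16.8% of all genes that it called. Dnajb9 encodes a BiP cochaperone that is a target of XBP1, and was at 85.7, 102 and 169 CPM in ZEB2 KO pools against 46.9, 68.2 and 35.3 CPM in ZEB2 control pools. Ero1l, the oxidase that recharges disulfide isomerases, was at 6.21, 5.73 and 5.77 CPM in ZEB2 KO pools against 9.12, 8.22 and 8.72 CPM in ZEB2 control pools. The oxidase and the isomerase gene Pdia4 were thus both lower. Among other degradation genes, 6 of 23 were called (26.1%), all higher: Ube2j1, Ufd1, Nploc4, Ubxn4, Ubxn6 and Ngly1. Of all genes, 16.8% were called, 9.08% as higher. Ufd1 and Nploc4 form the adaptor with which the p97 ATPase pulls proteins from the ER membrane, and Nploc4 was at 309, 341 and 524 CPM in ZEB2 KO pools against 165, 198 and 102 CPM in ZEB2 control pools. Among other translocation genes, 6 of 28 were called (21.4%, beside the same shares of all genes), all higher: Ssr4, Spcs1, Srp14, Srp19, Srp68 and Stt3b. Ssr4 belongs to the same translocon-associated complex as Ssr1 and stood at 46.3, 41.8 and 37.9 CPM in ZEB2 KO pools against 30.7, 33.2 and 31.0 CPM in ZEB2 control pools, while Ssr1 was lower in every ZEB2 KO pool.

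In ZEB1 KO muscle 75 of these 124 genes were higher and 49 lower in value, DESeq2 and edgeR called 0, and the smallest unadjusted p-values belonged to Fkbp2, Sars and Eif2ak2 (edgeR adjusted p = 1.00 each). Fkbp2, an ER prolyl isomerase, was at 6.79, 4.96 and 5.98 CPM in ZEB1 KO pools and 4.54 and 3.50 CPM in ZEB1 control pools. For the difference between both effects the smallest p-values were those of Ero1l, Fkbp2 and Ngly1, and none passed (edgeR adjusted p = 0.516 each). Between the ZEB2 control and ZEB1 control groups they were those of Aldh18a1, which makes a proline precursor, Creb3l1, an ER-bound transcription factor, and Sil1, a BiP exchange factor, and none passed (edgeR adjusted p = 1.00 each).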

How the data were processed

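Per the labels' protocols, Trizol RNA of 2 mice per pool went into stranded poly(A) libraries. The authors deposited expected counts per gene, raw and rounded to integers, a unit read from the values and the mention of RSEM. The submitters' processing notes name STAR, RSEM, DESeq2 and GRCm38, and give no version. Not given in the sources used here: aligner settings, annotation and the strand setting of the counting.

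The members and lists were chosen with earlier results of these data known. The analysis used edgeR 4.0.16 in R 4.3.3 (TMM scaling, filterByExpr with a minimum count of 10 and minimum total of 15, robust quasi-likelihood fit of 4 group means over 11 libraries). This left 15416 genes with 99.96% of the counts. P-values were adjusted by Benjamini-Hochberg over all of them, with a threshold of 0.05. Each SE was derived from the log2 fold change and its F statistic, and the biological coefficient of variation was 0.240. DESeq2 1.42.0 and limma-voom 3.58.1 were run on the same counts. The fit was tested on simulated counts with the spread fitted to these libraries. For ZEB1 KO it recovered 23% of 2-fold and 78% of 4-fold changes, and for ZEB2 KO 32.0% and 79.4%. A simulated 2-fold change was thus missed more often than called. The simulation drew each gene independently, so it held no shifts that many genes share within a pool. Its rates may therefore not carry over to these libraries. Exon lengths and overlaps came from GENCODE M21 (GRCm38), which matched 55144 of 55385 identifiers without version, and promoter windows from RefSeq (GRCm38.p6). The settings, tests, libraries and scalings varied are given with their effect in the closing section. Between replicates, chi-square over its degrees of freedom was 16.3 to 109, so each library counts as 1 sample. Values were printed per library for the 6 sensors and, in each other role, for the members with the 3 smallest edgeR p-values and those called by any tool. Other pathway genes were named where called, or among the 3 smallest p-values of a comparison. Members beyond this rule were described after their values were seen.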

Additional observations from a re-analysis of the deposited data

How the results depend on the processing

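Among all genes, DESeq2 called 21 for ZEB1 KO, 2587 for ZEB2 KO, 17 for the difference of effects and 16 between control groups, where edgeR called 0, 0, 0 and 3; among the stress genes it called 11 for ZEB2 KO and 1 between control groups. limma-voom called 1 gene for ZEB1 KO. Between control groups, 5 genes were called without robust moderation and 5 with RLE scaling. With no filter on low counts, 6, 348, 2 and 7 genes were called, and 3 stress genes for ZEB2 KO. This setting tested every gene with any count, so its counts cannot be set beside the shares given above. A fit on the ZEB2 groups alone called 2077 genes (14.2% of those it tested) and 9 stress genes. Upper-quartile scaling gave stress gene medians of 0.020 for ZEB2 KO, with 18 of 34 higher, and -0.026 for the difference. Relative to the median over all genes, the ZEB2 KO median was 0.198 under TMM and 0.197 under upper-quartile scaling. Why these settings differ was not tested.

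Leaving out 1 library gave 0 to 5 genes for ZEB1 KO, 0 to 3 for the difference, 1 to 5 between control groups, and 1 to 10 stress genes by DESeq2 for ZEB2 KO. That DESeq2 omission was added after seeing the data. Stress gene medians ran from -0.043 to 0.16 for ZEB1 KO and from -0.12 to 0.076 between control groups. Over all alternatives of this section together, 38 values moved among the role medians and the single stress genes' fold changes. Of the single genes' fold changes, 24 came to pass the threshold and 0 called values changed sign. With 1 library left out, edgeR called 0 stress genes in every comparison.

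The replicate numbers were not shown to pair the samples, though the values below cannot exclude a pairing, since each group holds few libraries. Same-numbered libraries correlated at 0.558 and 0.182 in the ZEB1 line and 0.246, -0.056 and -0.417 in the ZEB2 line, and 2 of 6 ZEB2 libraries correlated best with their own number. With the number as a replicate block, 0 genes were called in both knockout comparisons and 1 between control groups, where 3 were called without it.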

Other observations

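A few genes outside the naming rule were looked at after their values were seen. Hspa5, encoding BiP, the main ER chaperone and the standard readout of the unfolded protein response, was at 135, 146 and 193 CPM in ZEB2 KO pools and at 126, 159 and 145 CPM in ZEB2 control pools. The groups overlapped (log2 fold change 0.14, SE 0.16, edgeR adjusted p = 0.555). Hsp90b1, the ER-resident HSP90 chaperone, overlapped too, at 99.8, 95.7 and 109 CPM in ZEB2 KO pools and 91.7, 101 and 99.2 CPM in ZEB2 control pools. Ddit4, encoding the mTORC1 inhibitor REDD1, had the largest fold change of the other pathway genes, at 294, 323 and 549 CPM in ZEB2 KO pools against 39.5, 137 and 75.9 CPM in ZEB2 control pools (log2 fold change 2.21, SE 0.89, DESeq2 adjusted p = 0.0530). It also differed widely between the ZEB1 control pools, at 27.7 and 377 CPM.

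The eIF2 kinases lay on both sides. Eif2ak4, encoding GCN2, which answers amino acid shortage, was at 21.5, 30.6 and 55.7 CPM in ZEB2 KO pools against 9.68, 15.1 and 7.48 CPM in ZEB2 control pools (log2 fold change 1.74, SE 0.63, DESeq2 adjusted p = 0.0562), whereas Eif2ak2 was lower. The serine synthesis genes Phgdh and Psat1, known ATF4 targets, overlapped between these groups with log2 fold changes of -0.59 and -0.63. The circulating hormones Fgf21 and Gdf15, known products of the integrated stress response in stressed muscle, had 1 and 43 counts in all 11 libraries and were not tested.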
